A study of Mus musculus with 28 samples.

Results

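The synaptonemal complex is the zipper-like protein structure that holds paired homologous chromosomes together during meiotic prophase. Its 7 structural genes examined here were Sycp1, Sycp2, Sycp3, Syce1, Syce2, Syce3 and Tex12. They were taken by gene symbol as 7 of the 34839 genes, and with their 21 of the 109282 transcripts, in mRNA tables of mouse testis. The 5 mRNA libraries came from C57BL/6 testis and formed 3 groups: Prdm9 KO (Prdm9-/-, n = 2), Hop2 KO (Hop2-/-, n = 2) and an adult wild type (n = 1). Prdm9 encodes a histone methyltransferase that sets where meiotic recombination hotspots form, and Hop2, listed as Psmc3ip, encodes a factor needed for strand exchange between homologs. Both knockouts are known to arrest spermatocytes in meiotic prophase. A further library of single-stranded DNA came from testis of Prdm9 (K/K) mice, whose PRDM9 lacks the KRAB domain, on the same strain. The labels give neither the age of the knockouts nor the exons deleted. They also do not say that each library had its own animal, so the p-values rest on the spread among libraries, which could be technical.

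In the complex, SYCP2 and SYCP3 build the lateral elements along each chromosome axis, and SYCP1 forms the transverse filaments that bridge the axes. SYCE1, SYCE2, SYCE3 and TEX12 belong to the central element between them, where SYCE2 and TEX12 assemble into fibres and SYCE1 and SYCE3 lie near the ends of SYCP1. Loss of SYCP1 or of any of these central element proteins is known to block synapsis in mice. The genes lie on 7 different chromosomes. By the RefSeq spans of build GRCm38.p6, the lateral element genes are Sycp2 (ENSMUSG00000060445) at chr2:178345295-178407776 and Sycp3 (ENSMUSG00000020059) at chr10:88459587-88473236, and Sycp1 (ENSMUSG00000027855) is at chr3:102818499-102936100. The central element genes are Syce1 (ENSMUSG00000025480) at chr7:140777229-140787854, Syce2 (ENSMUSG00000003824) at chr8:84872111-84887446, Syce3 (ENSMUSG00000078938) at chr15:89390174-89410503 and Tex12 (ENSMUSG00000032065) at chr9:50557148-50561268.

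The values are the authors' rescaled TPM, an abundance per transcript length whose column sums ran from 825459 to 953598 in the knockouts and reached 1622660 in wild type. Read depth is unknown. The label check for Hop2 held: Psmc3ip was at 3.51 and 5.06 with Hop2 knocked out, while the Prdm9 KO libraries had 22.8 and 26.4 and wild type had 197. Prdm9 itself was at 4.73 and 5.93 in the Prdm9 KO libraries, 10.7 and 15.0 in the Hop2 KO libraries and 6.20 in wild type, so its level does not separate the Prdm9 KO libraries from wild type. Cell types differed widely between knockouts and wild type. Summed levels of 10 pachytene markers were 244 to 283 in the knockouts and 15118 in wild type, and those of 10 spermatid markers were 17.0 to 52.2 against 125821, with all 20 markers lower in every knockout library. Of these, Prm2 was at 0 in Hop2 KO replicate 1. Sertoli and Leydig sums went the other way, with 10 Sertoli markers at 6121 to 10206 in the knockouts against 1658 and 7 Leydig markers at 26004 to 73273 against 5884. Most of the Sertoli sum was Clu, at 3809 to 7713 in the knockouts against 1239. Most of the Leydig sum was Insl3, at 21025 to 68224 against 5124. All 10 Sertoli and all 7 Leydig markers were higher in every knockout library. The sum of 5 myoid markers was 149 to 354 in the knockouts against 898, although 4 of the 5 were higher in every knockout library, the other being Actg2 at 818 in wild type. Markers of spermatogonia, the cells before meiosis, summed to 534 to 641 in the knockouts against 169. Much of that sum was Uchl1, at 309 to 437 in the knockouts against 102. Of the 10 markers 8 were higher in every knockout library, and 2, Gfra1 and Nanos3, were lower in every one. Of the 10 marker lists, early prophase was the one whose knockout range, 162 to 188, included the wild-type sum of 185. Its members went both ways, with 3 of 10 lower and 6 higher in every knockout library. Spo11, among the 3 lower, was at 71.4 in wild type and 10.7 to 13.7 in the knockouts, so the wild-type sum of 185 rests largely on it. With columns rescaled to 1000000 the early prophase sum was 169 to 221 in the knockouts against 114. In such whole-tissue libraries fewer cells of a type and less RNA per cell cannot be told apart, and the part of cell composition in the results against wild type was not tested.

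Against wild type, both knockouts had lower mRNA levels of 3 central element genes, Syce1, Syce2 and Syce3. In the values as deposited, Syce1 was about 12-fold lower and Syce2 and Syce3 were about 3-fold lower in each knockout, and less under other scalings. The fourth central element gene among the 7, Tex12, the transverse filament gene Sycp1 and the lateral element gene Sycp3 did not pass the test in either comparison. Sycp2, the other lateral element gene, passed only in the Hop2 KO. With the deposited scaling 3 of the 7 genes were called lower and 0 higher in the Prdm9 KO. There 74.1% of all 16261 tested genes were called, 39.4% lower and 34.6% higher. In the Hop2 KO 4 of 7 were called lower and 0 higher, where 74.5% of all genes were called, 39.5% lower and 35% higher. A count of 3 or 4 lower calls among 7 genes is near what such a background gives. The median log2 change of the 7 genes was -1.28 in the Prdm9 KO and -1.43 in the Hop2 KO, beside -0.08 and -0.06 over all tested genes. Both comparisons share the single wild-type library, so they are not independent of each other, and the fit assumes that it varies like the knockouts.

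Syce1, whose product is recruited to the central element by SYCE3, was at 30.1 and 33.6 in the Prdm9 KO libraries, 30.2 and 33.6 in the Hop2 KO libraries and 397 in wild type. All 4 knockout libraries were far below wild type and hardly differed from each other. Its log2 change, on the log2(value + 1) scale used throughout, was -3.60 ± 0.13 (SE) in the Prdm9 KO (12.2-fold lower, adjusted p = 0.00021) and -3.60 ± 0.13 in the Hop2 KO (12.1-fold lower, adjusted p = 0.000214), from limma with Benjamini-Hochberg adjustment. A lower log2 change than that of Syce1 was found for 12.2% of all tested genes in the Prdm9 KO and 12.3% in the Hop2 KO.

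Syce2, which forms central element fibres with TEX12, was at 102 and 107 in the Prdm9 KO, 115 and 127 in the Hop2 KO and 358 in wild type. Syce3, the small protein that initiates central element assembly on SYCP1, was at 86.2 and 87.6 in the Prdm9 KO, 93.1 and 108 in the Hop2 KO and 313 in wild type. For both genes every knockout library lay below wild type, which stood at 2.83 to 3.50 times the knockout values for Syce2 and 2.89 to 3.63 times for Syce3. Syce2 fell in both, with a log2 change of -1.77 ± 0.11 (SE) in the Prdm9 KO (limma, adjusted p = 0.000851) and -1.56 ± 0.11 in the Hop2 KO (adjusted p = 0.00111). Syce3 also fell, with -1.84 ± 0.13 (adjusted p = 0.00115) and -1.63 ± 0.13 (adjusted p = 0.0015). Both genes thus fell by similar amounts, and less than Syce1. Tex12 stood apart from its central element partners, at 12.8 and 13.2 in the Prdm9 KO, 15.0 and 13.3 in the Hop2 KO and 12.4 in wild type. Its knockout values all lay slightly above wild type, and its log2 change of 0.06 (95% interval -0.37 to 0.49) in the Prdm9 KO and 0.18 (-0.25 to 0.60) in the Hop2 KO did not pass the test (limma, adjusted p = 0.738 and 0.341).

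Of the lateral element genes, Sycp2 was at 15.0 and 26.8 in the Prdm9 KO, 15.5 and 20.7 in the Hop2 KO and 50.1 in wild type. Each of the 4 knockout libraries was below this level, but the Prdm9 KO libraries were far apart. The log2 change was -1.28 ± 0.42 (SE) in the Prdm9 KO, which missed the threshold (limma, adjusted p = 0.0581), and -1.43 ± 0.42 in the Hop2 KO, which passed it (adjusted p = 0.0432). Without Hop2 KO replicate 1 or 2 the latter adjusted p was 0.148 or 0.0905, and without Prdm9 KO replicate 2 the former was 0.0315. Sycp3, the main component of the lateral element and a common stain for meiotic axes, was at 60.1 and 88.1 in the Prdm9 KO, 75.7 and 85.1 in the Hop2 KO and 50.9 in wild type. All 4 knockout libraries lay above wild type without passing the test, with log2 changes of 0.51 ± 0.27 and 0.65 ± 0.27 (limma, adjusted p = 0.169 and 0.103). Without Prdm9 KO replicate 1 the adjusted p of Sycp3 was 0.0394 in the Prdm9 KO and 0.0385 in the Hop2 KO, and without Prdm9 KO replicate 2 it was 0.0392 in the Hop2 KO.

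Sycp1, the transverse filament gene, was at 110 and 108 in the Prdm9 KO, 102 and 75.5 in the Hop2 KO and 83.8 in wild type. Highest were the 2 Prdm9 KO libraries, while the Hop2 KO libraries lay on either side of wild type. Neither log2 change passed the test, at 0.38 ± 0.21 (SE) in the Prdm9 KO and 0.06 ± 0.21 in the Hop2 KO (limma, adjusted p = 0.185 and 0.802). Taken over the 7 genes, 4 had all knockout libraries below wild type (Sycp2, Syce1, Syce2 and Syce3), as did 46.9% of all genes, and 2 had them all above (Sycp3 and Tex12), as did 44.2%.

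**Figure D1:**
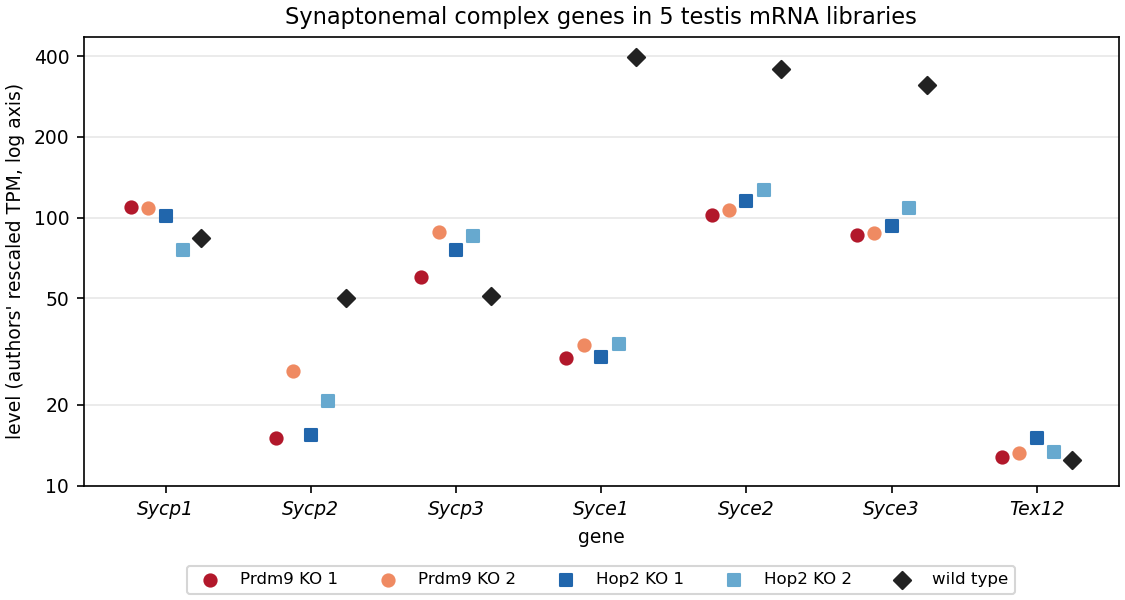
Level of each of the 7 genes (authors' rescaled TPM, log axis) in each of the 5 mRNA libraries, 1 point per library. The wild-type point stands well above the 4 knockout points for Syce1 (397 against 30.1 to 33.6), Syce2 and Syce3, and close to them for Tex12.

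The scaling of the tables bears on these calls. With columns rescaled to 1000000 the median log2 change of all genes moved from -0.08 to 0.77 in the Prdm9 KO and from -0.06 to 0.68 in the Hop2 KO, and the share of calls that were higher went from 46.8% to 66% and from 47% to 64%. Quantile normalization moved those medians to 0.58 and 0.59, with 61.8% and 61.5% of calls higher. Under both scalings Syce1, Syce2 and Syce3 remained lower and past the threshold in both knockouts, Sycp2 kept its direction without passing, and Sycp1, Sycp3 and Tex12 were called higher in both knockouts. The sizes shrank: Syce1 was 6.40-fold and 6.93-fold lower in the Prdm9 and Hop2 KO with rescaled columns and 5.84-fold and 5.94-fold lower after quantile normalization. Syce2 was 1.79-fold and 1.69-fold lower, then 1.51-fold and 1.39-fold, and Syce3 was 1.88-fold and 1.77-fold lower, then 1.61-fold and 1.48-fold. Relative to the median of all genes the members moved less. Over the values as deposited, rescaled, quantile normalized and scaled by median ratios, Syce1 stayed between -3.54 and -3.13 log2 units from the median, Syce2 between -1.69 and -1.06, Syce3 between -1.76 and -1.16 and Sycp2 between -1.44 and -1.14. Sycp3 stayed between 0.59 and 0.76 above it and Sycp1 between 0.12 and 0.69, while Tex12 was near it, between -0.11 and 0.23.

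**Figure D2:**
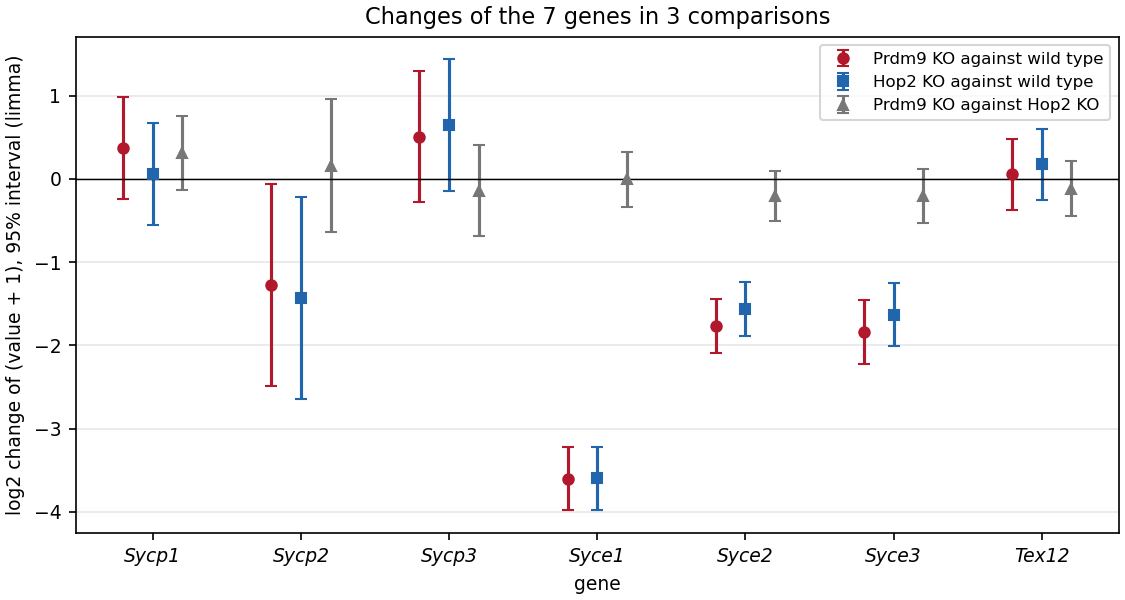
Log2 change of (value + 1) of each gene in 3 comparisons, with 95% intervals from limma. The intervals of Syce1, Syce2 and Syce3 lie below 0 in both comparisons with wild type, at about -3.60 for Syce1, and all 7 intervals of the Prdm9 KO against Hop2 KO comparison include 0.

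Multiplying a whole library by a factor leaves the proportions among the 7 genes as they are. In wild type Syce1 was the most abundant of them and made up 31.4% of their summed level, followed by Syce2 at 28.3%, Syce3 at 24.7%, Sycp1 at 6.62%, Sycp3 at 4.02%, Sycp2 at 3.96% and Tex12 at 0.981%. In the knockouts Syce1 made up 6.76% to 7.26%, Sycp1 16.3% to 26.3% and Sycp3 14.4% to 19%. Syce2, at 23% to 27.3%, and Syce3, at 18.9% to 23.4%, held shares near those of wild type, while Tex12 was at 2.84% to 3.37%. The 4 central element genes among the 7 together made up 85.4% of the pool in wild type and 51.9% to 60.9% in the knockouts, where Sycp1, Sycp3 and Tex12 had larger shares than in wild type. The summed level of the 7 genes, which does depend on the scaling, was 416 to 464 in the knockouts, 32.9% to 36.7% of the 1266 in wild type. With columns rescaled to 1000000 it was 476 to 562 against 780, or 61.1% to 72.1% of wild type.

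**Figure D3:**
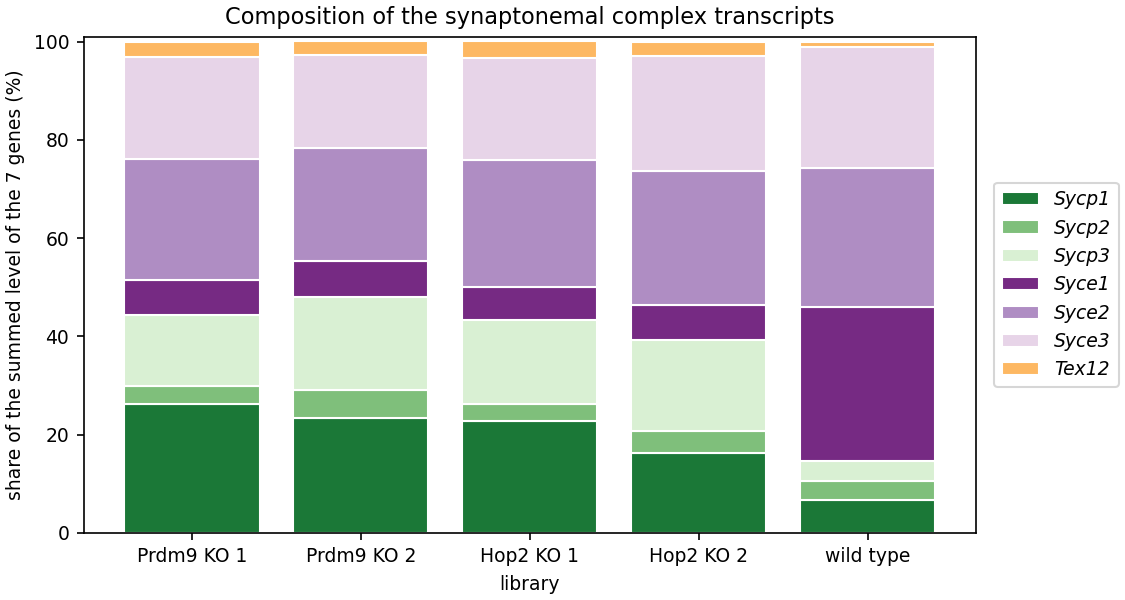
Share of each gene in the summed level of the 7 genes (%), 1 stacked bar per library. Syce1 fills 31.4% of the wild-type bar and about 7% of each knockout bar, and Sycp1 and Sycp3 fill more of the knockout bars.

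Ratios between pairs of members are likewise free of library factors. Of the 21 pairs, 18 had a wild-type ratio outside the range of the 4 knockout libraries, a share below the 90.1% of all pairs among 15591 genes and so no result about the members. The exceptions were Sycp1 to Sycp3, Sycp1 to Tex12 and Sycp2 to Syce2. With 1 wild-type library no exact test can give a one-sided p below 0.2. The ratio of Syce1 to Tex12 was 32.0 in wild type and 2.01 to 2.54 in the knockouts, and that of Syce1 to Syce2 was 1.11 against 0.263 to 0.315. Sycp2 to Sycp3, the lateral element pair, stood at 0.985 in wild type and 0.205 to 0.304 in the knockouts. Syce2 and Syce3 kept the steadiest ratio, at 1.14 in wild type and 1.17 to 1.23 in the knockouts. Relative to the summed early prophase markers, wild type exceeded the knockouts by 3.36 to 3.74 log2 units for Syce1, 1.30 to 1.83 for Syce2, 1.33 to 1.88 for Syce3 and 0.88 to 1.75 for Sycp2. On the same scale Sycp1 differed by -0.39 to -0.05, Sycp3 by -0.94 to -0.22 and Tex12 by -0.30 to -0.02. The marker sum of 185 in wild type includes 71.4 from Spo11, which was at 10.7 to 13.7 in the knockouts. These differences therefore depend on that marker, and they were not computed without it.

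The order of levels was similar in the knockouts. In the Prdm9 KO, Sycp1 (109 ± 0.816, SD, n = 2) and Syce2 (104 ± 3.12) came first, followed by Syce3 (86.9 ± 0.972) and Sycp3 (74.1 ± 19.8), whose ranges overlap, and then by Syce1 (31.8 ± 2.48), Sycp2 (20.9 ± 8.33) and Tex12 (13.0 ± 0.315). In the Hop2 KO, Syce2 (121 ± 8.21, SD, n = 2) came first, then Syce3 (100.7 ± 10.8) and Sycp1 (88.6 ± 18.5), which overlap, and Sycp3 (80.4 ± 6.62), which overlaps Sycp1. Syce1 (31.9 ± 2.45), Sycp2 (18.1 ± 3.71) and Tex12 (14.2 ± 1.18) again came last and in that order.

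Comparing Prdm9 KO with Hop2 KO, 2 mutants with different recombination defects, none of the 7 genes differed past the threshold. The call counts were 0 of 7 members and 0.0139% of all 14358 tested genes (2 genes by limma, with 445 at an unadjusted p under 0.05), and adjusted p-values of the members ran from 0.972 to 0.998. The intervals give what sizes remain possible. For Syce1 the log2 difference was -0.00403 (95% interval -0.33 to 0.32), for Tex12 -0.12 (-0.45 to 0.22), for Syce3 -0.21 (-0.53 to 0.12) and for Syce2 -0.20 (-0.51 to 0.10). For Sycp1 it was 0.31 (-0.14 to 0.76), for Sycp3 -0.14 (-0.69 to 0.41) and for Sycp2 0.16 (-0.64 to 0.96), so a difference close to 2-fold in Sycp2 lies within its interval. The groups did not overlap for Sycp1, which was higher in the Prdm9 KO, nor for Syce2, Syce3 and Tex12, which were lower there, while 32.9% of all genes had groups that did not overlap. In the authors' deposited table of gene tests, whose compared groups are not named, all 7 genes have q = 1, and the smallest p among them is 0.0796 for Syce3. Of the 21276 genes listed there 1 has q under 0.05, so this is no result about the members.

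The transcripts show which isoforms carried the lower levels. Of the 21 transcripts, 18 passed the minimum mean of 1 in the comparisons with wild type. The test called 5 lower in the Prdm9 KO, where 58.9% of all tested transcripts were called (33.9% lower and 24.9% higher), and 6 lower in the Hop2 KO, where 60% were called (34.6% lower and 25.4% higher). No member transcript was called higher in either. This depends on the scaling. With rescaled columns 4 were called higher and 4 lower in the Prdm9 KO and 3 higher and 4 lower in the Hop2 KO. With quantile normalization the counts were 4 higher and 4 lower, and 6 higher and 3 lower. The shares of all transcripts called under these scalings were not recorded, so these counts are no result about the members. Over all genes the share of calls that were higher also rose, to 66% and 64% with rescaled columns. It was 61.8% and 61.5% with quantile normalization. Between the knockouts 0 of 17 tested member transcripts passed, as did 0% of all 32722 (983 at an unadjusted p under 0.05 by limma).

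Nearly all Syce1 signal lay in ENSMUST00000026553, which was at 29.1 and 32.7 in the Prdm9 KO, 28.9 and 32.5 in the Hop2 KO and 396 in wild type. It fell, with log2 changes of -3.64 and -3.65 (limma, adjusted p = 0.000686 and 0.000677). The minor Syce1 transcript ENSMUST00000211616 was near 1 in all 5 libraries, at 0.982 and 0.857 in the Prdm9 KO, 1.23 and 1.16 in the Hop2 KO and 1.09 in wild type. Its share of the gene was therefore 2.55% to 4.08% in the knockouts and 0.274% in wild type, and its own level did not pass the test (adjusted p = 0.26 and 0.484).

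For Syce3, the main transcript ENSMUST00000109314 was at 86.0 and 87.4 in the Prdm9 KO, 92.2 and 108 in the Hop2 KO and 286 in wild type, and it fell, with log2 changes of -1.71 and -1.51 (limma, adjusted p = 0.00368 and 0.00462). The second Syce3 transcript ENSMUST00000167959 was at 0.220 and 0.170 in the Prdm9 KO, 0.855 and 0.576 in the Hop2 KO and 27.1 in wild type. It was under 1 in every knockout library, where it made up 0.194% to 0.919% of the gene against 8.65% in wild type. Its log2 changes were -4.56 and -4.04 (limma, adjusted p = 0.000519 and 0.000682), on a scale that understates changes of such low values.

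Among the Syce2 transcripts, ENSMUST00000170296 was at 41.4 and 38.5 in the Prdm9 KO, 49.8 and 50.7 in the Hop2 KO and 179 in wild type. ENSMUST00000003922 was at 32.6 and 47.4 in the Prdm9 KO, 38.2 and 53.6 in the Hop2 KO and 146 in wild type. These main isoforms both fell, with log2 changes of -2.13 and -1.81 for the first (limma, adjusted p = 0.00101 and 0.00143) and -1.87 and -1.67 for the second (adjusted p = 0.0234 and 0.0294). The call for ENSMUST00000003922 was lost without any 1 knockout library, with adjusted p of 0.0514 to 0.0848 in the Prdm9 KO and 0.0592 to 0.0981 in the Hop2 KO. It was also lost with rescaled columns (log2 changes of -0.94 and -0.87, adjusted p = 0.096 and 0.116) and quantile normalization (-0.74 and -0.62, adjusted p = 0.173 and 0.231), and in the Hop2 KO with no filter (0.0548). Another Syce2 transcript, ENSMUST00000144466, was at 19.2 and 14.5 in the Prdm9 KO, 18.2 and 15.8 in the Hop2 KO and 18.996 in wild type. It did not pass the test (adjusted p = 0.55 and 0.593), and its share of the gene was 12.5% to 18.8% in the knockouts and 5.3% in wild type. ENSMUST00000136026, at 6.26 to 8.99 in the knockouts and 14.5 in wild type, did not pass either.

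Sycp1, Sycp3 and Tex12 each had a main isoform with similar shares in all libraries. Sycp1 was mostly ENSMUST00000199930, with 64.2% to 70.8% of the gene in the knockouts and 67.7% in wild type, and Sycp3 was mostly ENSMUST00000020252, with 93.6% to 97.4% and 94.7%. Tex12 was mostly ENSMUST00000034568, with 77.7% to 83.7% and 81.4%. For Sycp2 the main transcript ENSMUST00000081134 was at 10.7 and 18.1 in the Prdm9 KO, 10.9 and 13.0 in the Hop2 KO and 36.5 in wild type. The lesser Sycp2 transcripts varied between libraries, ENSMUST00000132611 from 6.7% to 29.7% of the gene in the knockouts (17.1% in wild type) and ENSMUST00000138175 from 7.34% to 22.4% (9.9%). The main one passed in the Hop2 KO alone (log2 change of -1.54, limma, adjusted p = 0.0409, against -1.33 and 0.0575 in the Prdm9 KO), and the Hop2 KO call was lost without Hop2 KO replicate 1 (0.148) or 2 (0.116), while the Prdm9 KO change passed without Prdm9 KO replicate 2 (0.045).

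**Figure D4:**
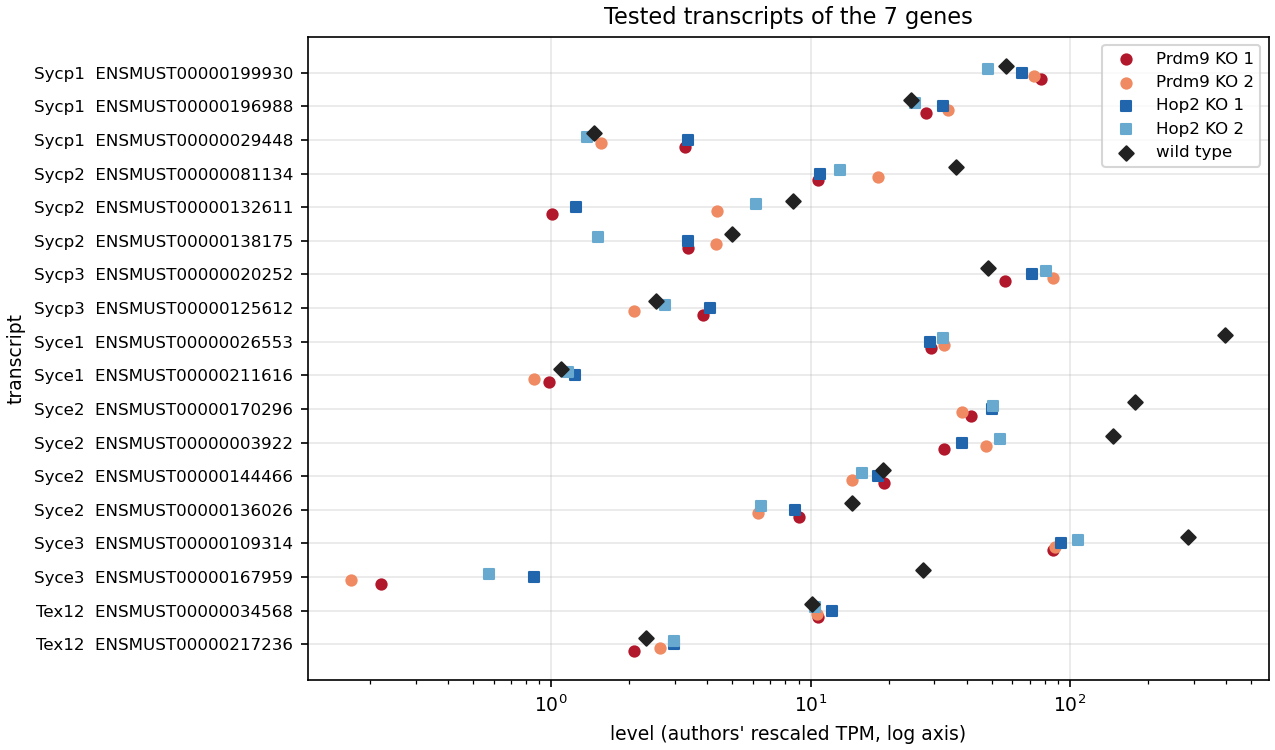
Level of each tested transcript of the 7 genes (authors' rescaled TPM, log axis) in each library. Wild type stands apart for the Syce1 transcript ENSMUST00000026553 and both Syce3 transcripts, and lies among the knockouts for ENSMUST00000211616 of Syce1 and ENSMUST00000144466 of Syce2.

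Some members overlap other genes, and whether reads were counted by strand was not stated in the labels or headers. The overlaps are of whole gene spans, introns included. Overlap of exons was not checked, so whether any member value is affected is not known. On the opposite strand, Il18 spans all 4121 bases of Tex12, Chpt1 overlaps Sycp3 over 3724 bases and Gcdh overlaps Syce2 over 1060 bases, by the RefSeq spans of GRCm38.p6. Il18 was at 5.15 to 6.84 in the knockouts and 1.89 in wild type. Tex12, at 12.8 to 15.0 in the knockouts against 12.4, was only slightly higher and did not pass the test. Chpt1 was at 42.2 to 60.7 in the knockouts and 162 in wild type, opposite in direction to Sycp3, and Gcdh at 24.4 to 27.7 against 9.49, opposite to Syce2.

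Other genes of the chromosome axis and of synapsis went both ways against wild type, as did tested genes in general. Of 12 listed axis and synapsis partners 11 were tested, with 3 called higher and 3 lower in the Prdm9 KO and 4 higher and 3 lower in the Hop2 KO, and a median log2 change of -0.12 in each. Of all tested genes 34.6% were called higher and 39.4% lower in the Prdm9 KO, and 35% and 39.5% in the Hop2 KO. With columns rescaled, 7 were called higher and 3 lower in each knockout, where 66% and 64% of the calls over all genes were higher. The partner not tested, Sycp2l, a relative of Sycp2, was at 0.0363 to 0.279. The meiotic cohesin subunit Rec8 was at 16.4 and 15.8 in the Prdm9 KO, 17.7 and 16.1 in the Hop2 KO and 111 in wild type, and fell, with log2 changes of -2.71 and -2.64 (limma, adjusted p = 0.000365 and 0.000383). Stag3, its cohesin partner, was at 92.9 to 104 in the knockouts and 494 in wild type, and fell, with changes of -2.25 and -2.36 (adjusted p = 0.000304 and 0.000267). Rad21l, the other meiotic kleisin, rose by 2.04 and 1.99, from 2.20 in wild type to 9.72 to 13.9 (adjusted p = 0.00637 and 0.0067). Rec8 and Rad21l thus changed in opposite directions. Six6os1, which binds SYCE1 in the central element and is listed under its clone name, was at 7.48 and 9.92 in the Prdm9 KO, 10.2 and 9.57 in the Hop2 KO and 4.99 in wild type. Its log2 changes were 0.68 in the Prdm9 KO (limma, adjusted p = 0.0544) and 0.86 in the Hop2 KO (adjusted p = 0.0301). Six6os1 was thus called higher in the Hop2 KO alone, opposite in direction to Syce1, Syce2 and Syce3. It had the widest log2 difference of its list between the knockouts, -0.18 (adjusted p = 0.972).

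Of 11 genes for crossover factors that act on the complex, 1 was called higher and 5 lower in each knockout, with median log2 changes of -0.53 and -0.51. Over all tested genes 34.6% and 35% were called higher and 39.4% and 39.5% lower. With rescaled columns the balance turned, to 4 higher and 2 lower in the Prdm9 KO and 4 higher and 3 lower in the Hop2 KO. The balance over all genes turned likewise, from 46.8% to 66% of calls higher in the Prdm9 KO. In the Hop2 KO it went from 47% to 64%, so the turn is no result about this list. Prr19, which acts with the crossover factor CNTD1, was at 12.7 to 15.5 in the knockouts and 142 in wild type, and fell, with log2 changes of -3.25 and -3.26 (limma, adjusted p = 0.000703 and 0.00068). Cntd1 was at 13.7 to 23.2 against 100, and fell, with changes of -2.41 and -2.69 (adjusted p = 0.00646 and 0.00476). Tex11, an X-linked gene for a protein that marks recombination sites on the complex, was at 18.3 to 22.7 against 4.63, and rose by 1.84 and 1.93 (adjusted p = 0.00272 and 0.00236). These late crossover genes and the X-linked one moved in opposite directions.

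Of 12 regulators of meiotic genes, 4 were called higher and 5 lower in each knockout, with median log2 changes of 0.09 and -0.10. Among all tested genes 74.1% were called in the Prdm9 KO and 74.5% in the Hop2 KO, with 34.6% and 35% higher. Here too the balance turned with that over all genes, to 6 higher and 3 lower in each knockout with rescaled columns. With quantile normalization it was 6 and 3 in the Prdm9 KO and 5 and 3 in the Hop2 KO. Over all genes 66% and 64% of calls were higher with rescaled columns, and 61.8% and 61.5% with quantile normalization. Tcfl5, a transcription factor of pachytene spermatocytes, was at 24.8 to 33.2 in the knockouts and 471 in wild type, and fell, with log2 changes of -3.99 and -4.12 (limma, adjusted p = 0.000549 and 0.000496). Stra8, the retinoic acid target that starts meiosis, was at 55.1 to 67.7 against 13.8, and rose by 1.99 and 2.09 (adjusted p = 0.00145 and 0.00125). Pcgf6, a subunit of a repressive Polycomb complex, was at 8.92 to 10.2 against 41.2, and fell, with changes of -2.0003 and -1.93 (adjusted p = 0.0013 and 0.00138). Between the knockouts none of the 3 lists had a call. Mga, of the same complex as Pcgf6, differed most among the regulators, by 0.54 (unadjusted p = 0.0103, limma adjusted p = 0.972).

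The genes whose pattern was closest to each member were found by the root mean squared difference of centred log2 values over the 5 libraries, among 10602 genes with a mean of at least 10. Syce2 was closest to Bbip1 (0.00495) and Sirt3 (0.0328), and Syce3 to Dhrs4 (0.0236) and Snx1 (0.0267). Those 2 members were also close to each other (0.0390). Syce1 was closest to Ccdc171 (0.0217) and Cdv3 (0.0378), while its nearest member, Syce3, was at 0.754. Sycp1 was closest to Hspa13 (0.0312) and Mier1 (0.0459), Tex12 to Ptpn2 (0.0241) and Clns1a (0.0348), Sycp3 to Smchd1 (0.0901) and Ugcg (0.0905), and Sycp2 to Golga1 (0.0857) and Park2 (0.1002). These are descriptions over 5 shared libraries, of which 1 is wild type.

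The start sites of all 7 genes lay inside break peaks of the Prdm9 (K/K) testis. Single-stranded DNA sequencing captures DNA ends bound by the recombinase DMC1 and so maps meiotic double-strand breaks. The single library has 2652951 distinct fragments and 17731 peaks called by the authors, and has no replicate and no control library here. Among all 27025 genes with a RefSeq start, 35.8% had a peak within 1000 bases of a start. Among the 7121 of them with a mean level of at least 10 in the knockouts the share was 73.6%, and among the 6227 with a level under 1 it was 12.5%. Of the other lists, all 12 axis and synapsis partners, all 8 crossover genes with a start site and 10 of 11 regulators had a peak. Of the marker genes with a start site, a peak was found for 6 of 7 of early prophase, 4 of 7 of spermatogonia, 4 of 9 of pachytene, 1 of 9 of spermatids, 2 of 3 of endothelium, 1 of 5 of macrophages, 0 of 6 of Sertoli cells, 0 of 5 of Leydig cells, 0 of 2 of myoid cells and 0 of 5 of red blood cells.

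The peaks differed in strength between members. At the Syce1 start the peak chr7:140786491-140788860 (mm10) held 129 fragments, or 54.4 per kb, more than 97.8% of all peaks. The Sycp1 peak, chr3:102934479-102937182, held 44 per kb, and the Syce2 peak, chr8:84871280-84874002, held 41.5 per kb. The Sycp3 peak, chr10:88457093-88461419, was the longest at 4327 bases with 26.6 per kb, the Sycp2 peak, chr2:178406357-178408867, held 24.3 and the Syce3 peak, chr15:89409173-89411674, held 24. Tex12 had the weakest peak, chr9:50560157-50562512, with 35 fragments or 14.9 per kb, more than 60% of all peaks. Within 1000 bases of the start there were 120 fragments for Syce1 and 30 for Tex12, against a median of 4 over all starts.

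**Figure D5:**
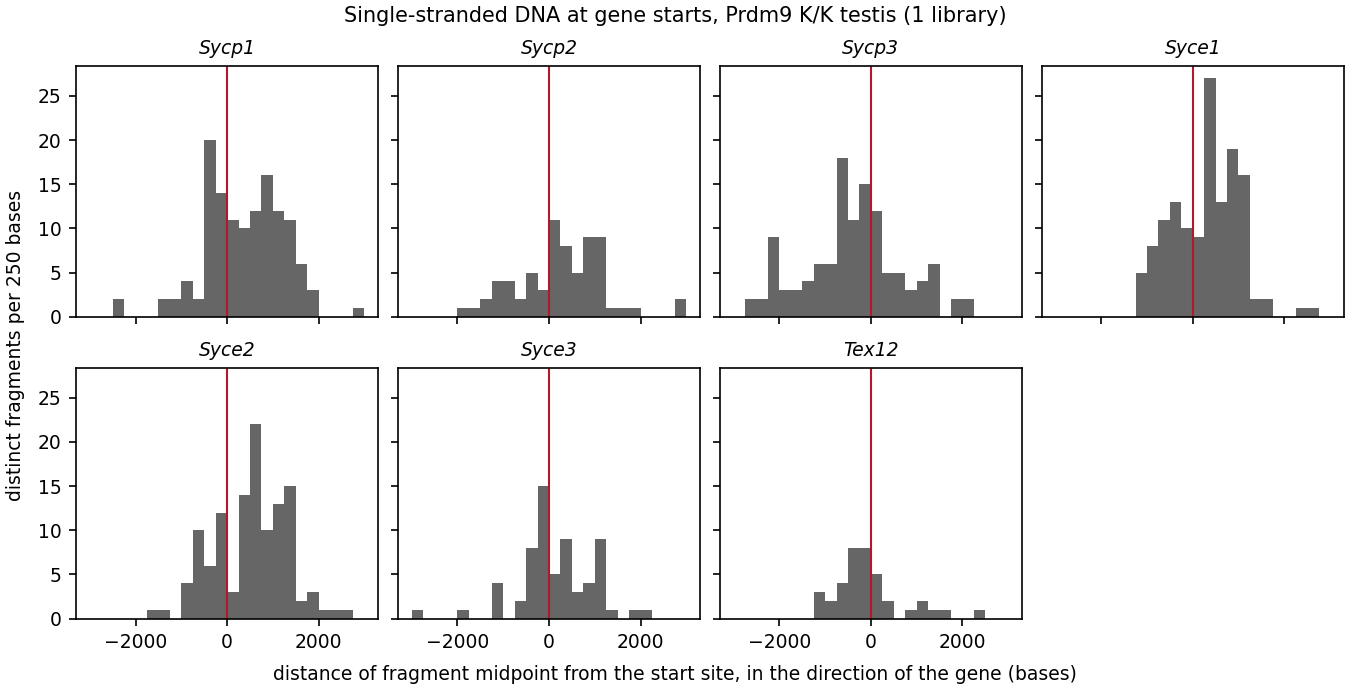
Distinct single-stranded DNA fragments of the Prdm9 (K/K) library in bins of 250 bases around the start of each gene (red line), in the direction of the gene. Fragments gather around each start, with up to 27 per bin for Syce1 and up to 8 for Tex12.

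The promoters of 5 members are shown because each lies inside its break peak: those of the 4 genes that hold the E-box described next, and that of Syce1, which has the strongest peak and the largest change. The stretches run 150 bases before to 10 bases after the start and come from RefSeq, build GRCm38.p6. Capitals mark matches, on either strand, to the E-box CACGTG bound by MYC and MAX family factors such as MGA and its partners, the E2F motif TCCCGC, the motif CNCCTCAG of STRA8 and the MYB motif TAACNG. For Syce2 the second of 2 start sites is shown, where the STRA8 and E2F matches overlap by 3 bases.
Sycp1, chr3:102936091-102936250, minus strand: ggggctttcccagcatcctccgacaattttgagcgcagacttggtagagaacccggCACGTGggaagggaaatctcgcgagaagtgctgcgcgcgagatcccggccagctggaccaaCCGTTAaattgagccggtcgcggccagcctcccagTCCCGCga
Sycp3, chr10:88459437-88459596, plus strand: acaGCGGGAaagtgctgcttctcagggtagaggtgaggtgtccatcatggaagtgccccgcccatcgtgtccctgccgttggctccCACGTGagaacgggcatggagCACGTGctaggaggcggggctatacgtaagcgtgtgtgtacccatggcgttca
Syce2, chr8:84872108-84872267, plus strand: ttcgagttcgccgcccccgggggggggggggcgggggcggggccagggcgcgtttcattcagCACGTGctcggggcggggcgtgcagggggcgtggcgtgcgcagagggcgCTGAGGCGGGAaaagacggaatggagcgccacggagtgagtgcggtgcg
Tex12, chr9:50561259-50561418, minus strand: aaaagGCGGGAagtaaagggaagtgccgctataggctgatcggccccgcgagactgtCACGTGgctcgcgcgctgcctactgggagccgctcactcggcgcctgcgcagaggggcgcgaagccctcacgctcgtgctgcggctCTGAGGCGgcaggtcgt
Syce1, chr7:140787845-140788004, minus strand: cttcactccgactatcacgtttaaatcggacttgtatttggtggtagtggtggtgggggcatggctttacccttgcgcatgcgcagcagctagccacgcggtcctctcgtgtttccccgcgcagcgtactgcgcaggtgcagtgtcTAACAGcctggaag

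The CACGTG motif was found in the windows of 4 members, Sycp1, Sycp3, Syce2 and Tex12, where windows reached from 250 bases before to 50 after each start. It lay at -94 in Sycp1, at -64 and -43 in Sycp3, at -88 in Syce2 and at -93 in Tex12, counted from the start. Of all genes 8.09% had the motif in such a window. The E2F motif was in 4 members as well, the same ones, beside 22% of all genes. The STRA8 motif was in 3, namely Sycp1, at 33 and so outside the stretch shown, Syce2 and Tex12, beside 9.12% of genes. The MYB motif was in 5 members, beside 25.9% of genes, and was the only one of the 4 motifs in Syce1, at -4, in Sycp2, at -140, and in Syce3, at -28 from its second start. Letters that match a motif are no proof of a bound factor. The windows held 5 to 33 CG pairs, against a median of 7 over all windows, and had a GC content of 54.7% to 69.3% against a median of 52.7%.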

How the data were processed

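Messenger RNA was measured in 5 mouse testis libraries and single-stranded DNA in 1; the other 22 of the 28 samples were not used here. The mRNA tables hold a signal that the authors called TPM, per the file headers, for genes and for transcripts. Per the submitters' processing notes the authors used CASAVA, kallisto and sleuth with builds GRCm38 and mm10, and MACS2 2.1.0.20150420 for break peaks. Other versions and the rescaling of TPM were not stated in the labels or headers, and read depth is unknown. The p-values and q-values of the authors' deposited table are sleuth's, and its groups are not named. Peak and fragment files give positions alone. Identical fragment lines were counted once.

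Values were tested as log2(value + 1) with limma 3.58.1 in R 4.3.3, with a mean-variance trend, over all genes whose mean reached 1. The Benjamini-Hochberg adjustment ran over the whole table, and 0.05 was the threshold. The comparison of knockouts used their 4 libraries, and comparisons with wild type used all 5, in which the lone wild type is assumed to vary like the knockouts. Motifs, peaks and shares were computed in Python 3.11.15 with pandas 2.3.3. The fits were also run on simulated data. There every library, wild type included, was given the same spread, and few genes were changed. Such data cannot test the assumption about the lone wild type. Groups came from the labels' genotypes, and 0 columns of per-sample values were left unused.

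All members were named. From each list of other genes, the 3 with the largest mean change against wild type and the 1 with the largest difference between knockouts were named. For likeness, the 2 nearest genes were named, leaving out predicted genes, clone names and pseudogenes. The members, lists and motifs were chosen with earlier results of these data known. Alternatives covered the pseudocount, filter, scaling, trend, replicate block, pooled fit, window and each library left out.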

Additional observations from a re-analysis of the deposited data

How the results depend on the processing

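Syce1, Syce2 and Syce3 stayed lower and past the threshold in all 12 alternatives of both comparisons with wild type. Their log2 changes ranged from -3.68 to -2.55 and -3.68 to -2.57 for Syce1, -1.80 to -0.59 and -1.63 to -0.47 for Syce2, and -1.85 to -0.69 and -1.74 to -0.57 for Syce3. The smallest sizes came with quantile normalization. The Sycp2 call in the Hop2 KO was lost with no filter (adjusted p = 0.0903), rescaled columns (0.241), quantile normalization (0.131) and median ratios (0.0636), and in the Prdm9 KO Sycp2 passed with a minimum mean of 5 (0.0359). Sycp3 passed in the Hop2 KO with median ratios (log2 change of 0.91, adjusted p = 0.041).

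With rescaled columns or quantile normalization 6 members were called against wild type in the Prdm9 KO (3 higher, 3 lower) in place of 3, and 8 member transcripts (4 higher, 4 lower) in place of 5. Calls over all genes numbered 12553 with rescaled columns and 13021 with quantile normalization, in place of 12043. Of these 66% and 61.8% were higher, in place of 46.8%. Leaving out 1 library each gave 3 to 4 member genes in the Prdm9 KO and 3 to 5 in the Hop2 KO, and 4 to 5 member transcripts in both. The Hop2 KO call of the Syce3 transcript ENSMUST00000109314 was lost with quantile normalization (adjusted p = 0.0543).

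Between the knockouts, calls over all genes numbered 2 as reported, 0 with no filter (980 at an unadjusted p under 0.05), 1 with a pseudocount of 5, 0 in the fit of all 5 libraries (647 at an unadjusted p under 0.05) and 3 to 11 with 1 library left out. With the replicate number as a block there were 8 calls and 0 members. The numbers pair nothing in the labels, and the deviations of the first replicates correlated at 0.413 across genes, which are not independent.

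Directions that reversed were those of differences that had not passed. Between the knockouts Syce1 was at 0.12 with rescaled columns, 0.0208 with quantile normalization and 0.0237 with median ratios, and ranged from -0.0812 to 0.0731 with 1 library left out, Sycp3 from -0.41 to 0.13, and Sycp2 from -0.24 to 0.55. Sycp1 in the Hop2 KO against wild type ranged from -0.15 to 0.28, and between the knockouts Six6os1 ranged from -0.358 to 0.00604 and Cntd1 from -0.0663 to 0.622. All 7 break peaks stayed within windows of 500 and 2000 bases and, as an alternative added after seeing the data, among the peaks above the median of fragments per kb. The planned choice by the peak score was not run, since the peak file gives no score.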

Other observations

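The paralog Syce1l, chosen after its values were seen, was at 0.890 and 1.76 in the Prdm9 KO, 1.26 and 1.61 in the Hop2 KO and 64.8 in wild type. All knockout libraries were far below wild type, as for Syce1, and the log2 change was -4.85 ± 0.29 (SE) and -4.76 ± 0.29 (limma, adjusted p = 0.000752 and 0.000763). The pseudogene Sycp1-ps1 was at 0.00735 to 0.0249 in the knockouts and 0.712 in wild type, while Sycp1 itself overlapped between them. Reads shared between such copies cannot be told apart from these tables.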
